A study of Mus musculus with 6 samples.

Results

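The genes described here are 37 interferon-stimulated genes of the mouse, listed by symbol, of which 35 were found among the 32285 genes of the feature table. Mx1 and Mx2, the dynamin-like antiviral GTPases of the list, were not among them and were not analysed here. The genes were chosen by name as well-known interferon targets, and they fall into transcription factors of the response (Irf7, Irf9, Stat2), nucleic acid sensors (Ifih1, Ddx58, Dhx58, Zbp1), the IFIT, OAS and IFITM families, the ISG15 conjugation genes (Isg15, Usp18, Herc6) and other effectors.

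Type I interferon binds a receptor of IFNAR1 and IFNAR2, whose kinases JAK1 and TYK2 pass the signal on by phosphorylation. STAT2 and IRF9 act in the nuclear complex ISGF3, which binds the interferon-stimulated response element, a pair of GAAA repeats, in the promoters of such genes. In the bone marrow the same genes are known to be active at a low level without infection, and stem cells and neutrophils are known to hold some of them, above all the IFITM genes, at a high basal level.

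Gene expression was measured in single cells of the bone marrow of 9 female BALB/c mice, 10 weeks of age at harvest, after enrichment of c-Kit+ cells on magnetic beads. The 3 non-tumor-bearing (NTB) mice had no tumor and no treatment. The 3 vehicle mice carried 4T1 mammary tumors and were given DPBS by daily intraperitoneal injection, and the 3 BRQ mice carried 4T1 tumors and were given brequinar (BRQ), an inhibitor of the pyrimidine synthesis enzyme DHODH, at 10 mg/kg by the same route and schedule. Treatment lasted 2 weeks from the time when tumors could first be measured. Vehicle against NTB mice, called with tumor below, thus differ in the tumor and in the daily injections, which cannot be told apart. Each of 3 pools held 1 mouse of each group, told apart by hashtag antibodies, and each group had its own hashtag, so that group and hashtag cannot be told apart. The 3 mice of a pool shared 1 droplet capture and thus its free RNA.

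Pools 1, 2 and 3 held 13750, 11441 and 14297 barcodes, of which 41.6% to 52.3% were called as cells of a single mouse and 33.1% to 52.2% stayed without a hashtag. The cells assigned to a mouse after filtering numbered 382 to 2780, and 26 to 37 barcodes were shared between any 2 pools. Granulocyte-monocyte progenitors (GMPs), defined by the GMP marker Ms4a3, numbered 3916 and gave 998154 to 16074010 unique molecular identifiers (UMIs, counted RNA molecules) per mouse, fewest in NTB mouse 1. All 8 GMP markers were detected in them. Clusters were found without any interferon-stimulated gene, since 0 of the 35 were among the variable genes used. Counts were summed per mouse and cell type and are given as CPM, counts scaled to a common library size (after TMM scaling), in the order of pools 1, 2 and 3. Levels summed over several mice, by class or by cluster of GMPs, are CPM of the plain total without TMM scaling. They do not compare directly with the values per mouse. A mouse is named by its group and pool, so that NTB mouse 3 is the one of pool 3.

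The response element was looked for in the promoters, because the genes that moved in these data differed in whether they held it. RefSeq promoters on GRCm38.p6, from 250 bases before the start to 50 after it, were matched for 28 of the 37 genes. GAAANNGAAA stood on either strand in 15 of these 28 (53.6%), against 3.99% of 27025 genes with a promoter and 3.44% of 32851 promoters. The 15 were Bst2, Ddx58, Gbp2, Ifih1, Ifit1, Ifit3, Ifit3b, Ifitm2, Ifitm3, Isg15, Oas1a, Oas3, Rsad2, Stat2 and Trim30a, and the 13 without it included Ifitm1, Samd9l, Xaf1, Irf7 and Irf9. The STAT motif TTCNNNGAA, searched on both strands, stood in 6 of the 28 (21.4%), against 9.55% of genes. A match is only a string of letters in this window, and matches of both motifs may overlap.

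The promoters of 6 genes are shown because their genes mark the patterns below: Isg15 and Ifit1 as textbook targets, Ifitm2 and Ifitm1 as neighbours that rose together in neutrophil-like cells with and without the motif, and Bst2 and Samd9l as members that moved in opposite directions in progenitors. Each is the 250 bases before the start, read on the gene's own strand, with GAAANNGAAA or its reverse complement in capitals.
Isg15 (chr4:156200819-156201068, minus strand): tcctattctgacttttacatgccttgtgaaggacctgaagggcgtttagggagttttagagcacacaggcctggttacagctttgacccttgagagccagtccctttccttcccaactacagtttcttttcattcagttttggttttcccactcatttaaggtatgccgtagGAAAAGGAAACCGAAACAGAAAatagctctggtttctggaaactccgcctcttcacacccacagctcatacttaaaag
Ifit1 (chr19:34640639-34640888, plus strand): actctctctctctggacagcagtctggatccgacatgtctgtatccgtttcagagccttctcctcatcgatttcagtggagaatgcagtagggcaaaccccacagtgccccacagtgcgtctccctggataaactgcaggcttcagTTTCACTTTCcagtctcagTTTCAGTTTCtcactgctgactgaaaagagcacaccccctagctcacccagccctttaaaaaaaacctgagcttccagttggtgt
Bst2 (chr8:71537473-71537722, minus strand): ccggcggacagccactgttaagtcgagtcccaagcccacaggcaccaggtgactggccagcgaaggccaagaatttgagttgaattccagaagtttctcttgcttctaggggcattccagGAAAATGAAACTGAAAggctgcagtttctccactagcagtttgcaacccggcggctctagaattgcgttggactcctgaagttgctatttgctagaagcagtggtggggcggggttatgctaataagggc
Ifitm2 (chr7:140955962-140956211, minus strand): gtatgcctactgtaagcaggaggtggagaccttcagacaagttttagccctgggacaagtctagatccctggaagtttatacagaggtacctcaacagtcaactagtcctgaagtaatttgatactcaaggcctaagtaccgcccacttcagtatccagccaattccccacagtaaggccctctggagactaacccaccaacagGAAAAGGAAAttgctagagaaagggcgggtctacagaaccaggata
Ifitm1 (chr7:140967826-140968075, plus strand): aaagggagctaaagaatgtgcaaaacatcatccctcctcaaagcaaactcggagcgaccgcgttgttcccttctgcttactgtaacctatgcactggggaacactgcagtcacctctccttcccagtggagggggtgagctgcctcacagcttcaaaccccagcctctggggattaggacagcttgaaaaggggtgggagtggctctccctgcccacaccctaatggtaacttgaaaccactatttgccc
Samd9l (chr6:3399572-3399821, minus strand): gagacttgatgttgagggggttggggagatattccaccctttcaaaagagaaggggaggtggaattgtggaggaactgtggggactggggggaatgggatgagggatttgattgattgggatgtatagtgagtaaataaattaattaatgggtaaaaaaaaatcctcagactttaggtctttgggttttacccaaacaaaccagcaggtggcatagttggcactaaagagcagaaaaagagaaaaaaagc
In Isg15, 3 overlapping matches began 78, 72 and 66 bases before the start, and in Bst2 a pair began 130 and 124 bases before it. Ifit1 held its matches on the opposite strand, and the match of Ifitm2 began 46 bases before the start. The windows of Ifitm1 and Samd9l held none. That of Ifitm1 lies inside the gene as GENCODE M21 draws it (chr7:140967221-140969825), and the bases before that earlier start were not searched. In Ifitm3 the matches lay just inside the transcript, beginning 2 and 19 bases after the start:
Ifitm3 (minus strand of chromosome 7): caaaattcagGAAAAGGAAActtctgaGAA

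By the GENCODE M21 annotation of GRCm38, the 4 Ifitm genes of the list lie within 63.1 kb of chromosome 7 (chr7:140954837-141017924), the 4 Ifit genes within 99.3 kb of chromosome 19 and Oas1a, Oas2 and Oas3 within 177 kb of chromosome 5. All 35 measured genes are protein-coding. Ifit3 and Ifit3b are near-identical copies whose reads the counting could not split with certainty.

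Most of the 35 genes stood at their highest level outside GMPs. The IFITM genes, whose membrane proteins block the fusion of viruses with cells, had the most UMIs. Summed over the 9 mice, whose groups differed in the cells they gave to each class, Ifitm1 stood at 1000 CPM in HSC/MPP-like cells (stem and multipotent progenitors), 772 CPM in neutrophil-like cells, 239 CPM in monocyte/MDP-like cells and 45.4 CPM in GMPs, and was lowest in B cell-like cells at 10.3 CPM. The order of the first 2 classes turned with the group: Ifitm1 summed to 497 and 71.5 CPM in HSC/MPP-like and neutrophil-like cells of the NTB mice, 1420 and 2470 CPM with vehicle and 1060 and 780 CPM with BRQ. Ifitm2 stood at 733 CPM in neutrophil-like cells and 389 CPM in GMPs, but in the NTB mice alone at 247 CPM in the former and 356 CPM in the latter, and Ifitm6 at 1250 CPM in neutrophil-like cells against 6.64 CPM in HSC/MPP-like cells.

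**Figure D1:**
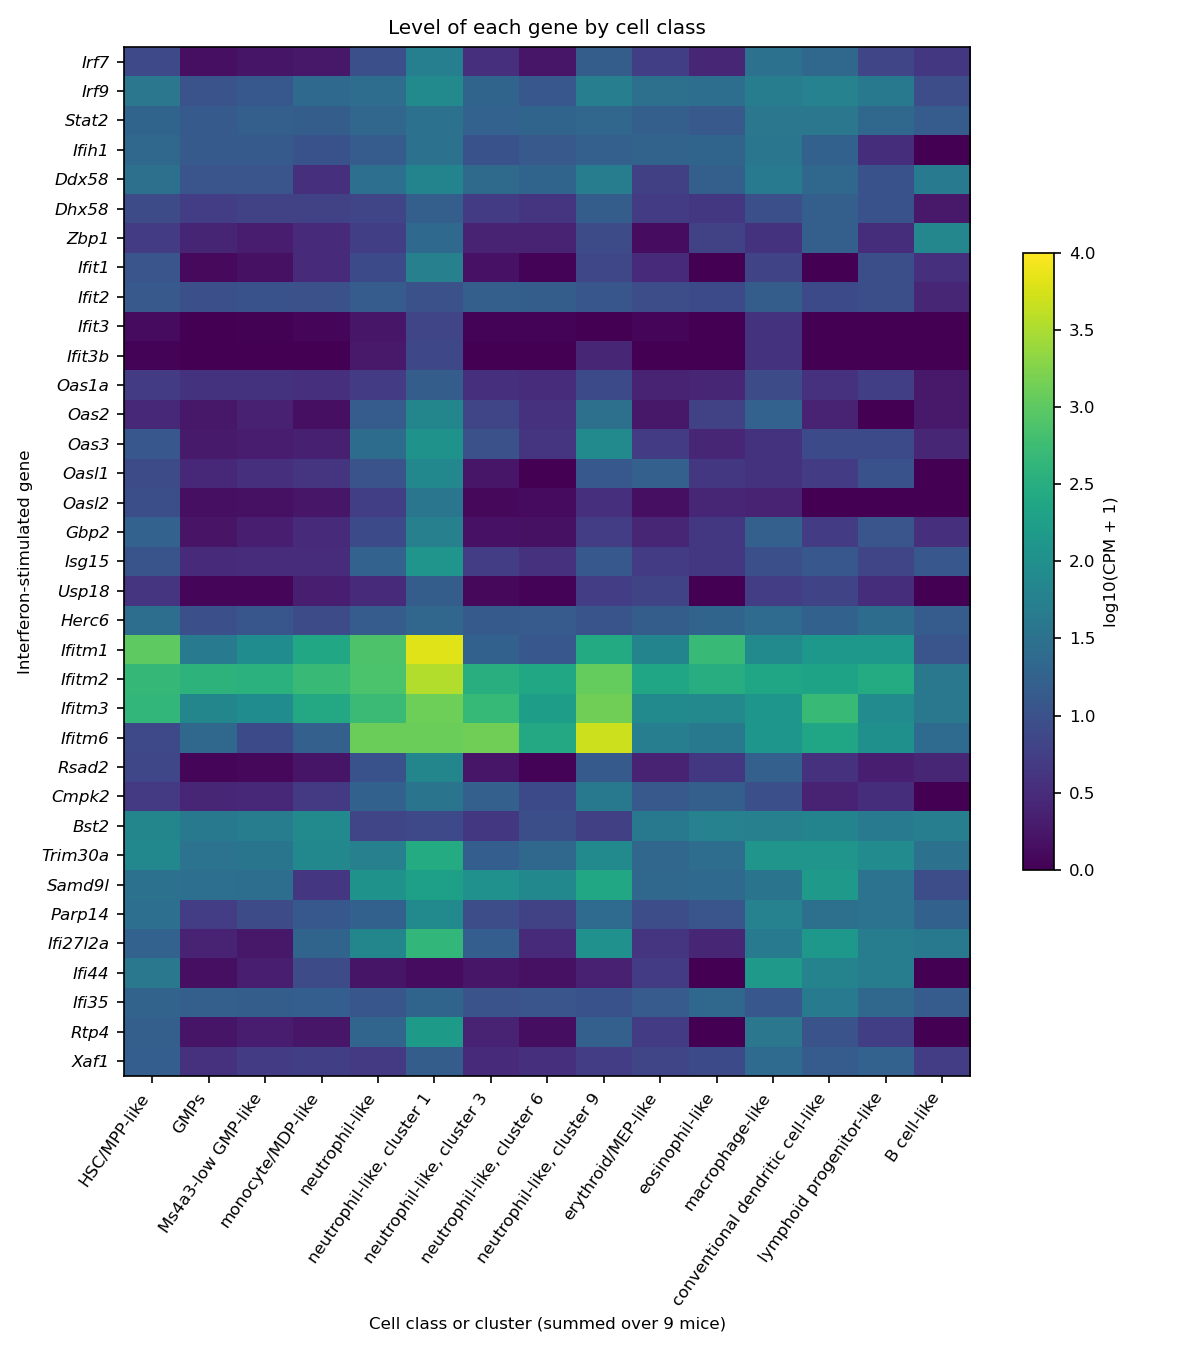
Level of each of the 35 genes (rows) in each cell class (columns), as log10(CPM + 1) of the counts summed over the 9 mice. Ifitm1 to Ifitm3 were high in HSC/MPP-like and neutrophil-like cells, with Ifitm1 at 1000 and 772 CPM, while Isg15 and Rsad2 were lowest in GMPs at 2.16 and 0.19 CPM.

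Other genes had other peaks. Ifi44, a cytoplasmic protein of the response, stood at 146 CPM in macrophage-like cells and 0.4 CPM in GMPs. Zbp1, a sensor of Z-form nucleic acids, was at 70.1 CPM in B cell-like cells, a cluster led by immunoglobulin genes, Jchain and Mzb1, which also mark plasma cells, and Samd9l, a restrictor of poxviruses and of myeloid growth, at 138 CPM in conventional dendritic cell-like and 113 CPM in neutrophil-like cells. The transcription factors Irf7 and Stat2 were highest in macrophage-like cells, at 29.7 and 38.2 CPM, and Irf9 in conventional dendritic cell-like cells at 59.4 CPM. The macrophage-like, dendritic, B cell-like and stromal classes held 18 to 187 cells over all mice, so these peaks rest on few cells and no comparison between groups was made in them.

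In GMPs few of the genes changed with tumor, and those that passed without the pool of the mice in the fit fell. Samd9l, the RNA sensor Ddx58 and the apoptosis factor Xaf1 were lower in vehicle-treated 4T1-bearing mice (Veh-GMPs) than in NTB-GMPs, and Samd9l and Xaf1 were higher again with BRQ. The classical targets Isg15, Ifit1 and Irf7 were near the floor of detection and did not pass the test or could not be tested. Of the 35 genes, 22 passed the filter on low counts in GMPs and 13 did not: Irf7, Ifit1, Ifit3, Ifit3b, Oas2, Oas3, Oasl2, Gbp2, Usp18, Rsad2, Ifi27l2a, Ifi44 and Rtp4, each with 0 to 82 UMIs over the 9 mice.

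By edgeR, 3 of the 22 tested genes were called in Veh-GMPs against NTB-GMPs, all lower, where 11.3% of all 10331 genes tested were called. In BRQ-GMPs against Veh-GMPs, 2 were called, both higher, against 13.4% of all genes. In BRQ-GMPs against NTB-GMPs, 0 were called by edgeR and by DESeq2, with 5 at an unadjusted p under 0.05, against 6.01% of all genes. The shares of members called were thus close to the background in the comparison with NTB-GMPs and below it with BRQ. With the pool as a replicate block 6 were called with tumor, of which Ifitm1 and Bst2 were higher, against 16.4% of all genes. The median log2 fold change of the 22 was -0.19 with tumor (all genes -0.014) and 0.16 with BRQ against vehicle (all genes 0.001), with 16 of 22 below 0 in the former and 16 of 22 above 0 in the latter, and both comparisons share the vehicle mice. Without TMM scaling the median of all genes moved to 0.2 with BRQ against vehicle and to 0.16 against NTB, and the share of calls that were higher went from 45.2% to 88.5% and from 42.5% to 83.5%. In the other classes and over all cells that median moved to at most 0.177.

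Samd9l stood at 36.0, 25.7 and 40.4 CPM in the NTB mice, 22.7, 16.3 and 19.8 CPM in the vehicle mice and 30.2, 30.5 and 27.5 CPM in the BRQ mice. Every vehicle mouse was below every NTB and every BRQ mouse. The log2 fold change was -0.72 (SE 0.17, adjusted p = 0.00672) in Veh-GMPs against NTB-GMPs and 0.49 (SE 0.13, adjusted p = 0.0102) in BRQ-GMPs against Veh-GMPs, with -0.22 (SE 0.15, adjusted p = 0.437) in BRQ-GMPs against NTB-GMPs. The call against NTB was lost without NTB mouse 3 (log2 fold change -0.52, adjusted p = 0.146). With GMPs defined by a higher Ms4a3 limit of 3.5, both calls were lost, the former at -0.25 (adjusted p = 0.936) and the latter at 0.51 (adjusted p = 0.279).

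The share of GMPs with a Samd9l UMI, after each cell was thinned to 3000 UMIs, was 10.5%, 6.25% and 11.0% without a tumor, 5.47%, 4.44% and 6.36% with vehicle and 9.41%, 10.1% and 9.55% with BRQ. BRQ mice exceeded vehicle mice by 4.26 percentage points, which gave the smallest p that a two-sided exact permutation test of 3 against 3 mice allows (p = 0.1), and the difference with tumor was -3.83 points (p = 0.2, same test). Unthinned, the shares of Samd9l were 24.4% to 32.8%, 22.1% to 29.1% and 30.8% to 36.9%. In monocyte/MDP-like cells of the same captures, where Samd9l was at 3.34 CPM, the thinned share was 0% to 2.09%, with median depths of 13900 to 23700 UMIs against 11100 to 18000 in GMPs. The 5 mice at 0% held 38 to 331 monocyte/MDP-like cells there, which allows a share of up to 9.25% in the smallest and 1.11% in the largest sample (exact binomial 95% bounds, counting error only), the former above and the latter below the shares of the vehicle mice in GMPs.

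Ddx58 encodes RIG-I, a sensor of viral RNA ends. It stood at 17.4, 13.2 and 17.8 CPM in NTB mice, 8.94, 6.89 and 9.71 CPM in vehicle mice and 10.4, 11.6 and 8.68 CPM in BRQ mice, so that both tumor-bearing groups lay below all NTB mice and overlapped each other. Its log2 fold change was -0.85 (SE 0.22, adjusted p = 0.0145) with vehicle against NTB, -0.67 (SE 0.21, adjusted p = 0.0585) with BRQ against NTB and 0.18 (SE 0.17, adjusted p = 0.531) with BRQ against vehicle. The call was lost without NTB mouse 3 (adjusted p = 0.146) and without vehicle mouse 1 (adjusted p = 0.0606), and with hashtags called by tag ratios (log2 fold change -0.59, adjusted p = 0.0606).

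Xaf1, which binds the apoptosis inhibitor XIAP, rested on few molecules: 6, 4 and 13 UMIs without a tumor, 22, 1 and 7 with vehicle and 27, 36 and 39 with BRQ. These were 6.54, 2.51 and 6.26 CPM, 1.48, 0.63 and 1.36 CPM and 2.46, 3.9 and 3.11 CPM, and every vehicle mouse was lowest within its pool. The log2 fold changes were -1.86 (SE 0.46, adjusted p = 0.0102) and 1.18 (SE 0.34, adjusted p = 0.0226). DESeq2 gave no adjusted p for the former and missed the threshold for the latter (adjusted p = 0.0596). The call with tumor was lost without NTB mouse 3 (adjusted p = 0.16), and the call with BRQ was lost without any single vehicle mouse (adjusted p = 0.117, 0.0578 and 0.0667) or without BRQ mouse 2 (adjusted p = 0.0797). With an Ms4a3 limit of 2.5 for GMPs the latter fold change was 0.67 (adjusted p = 0.0849).

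**Figure D2:**
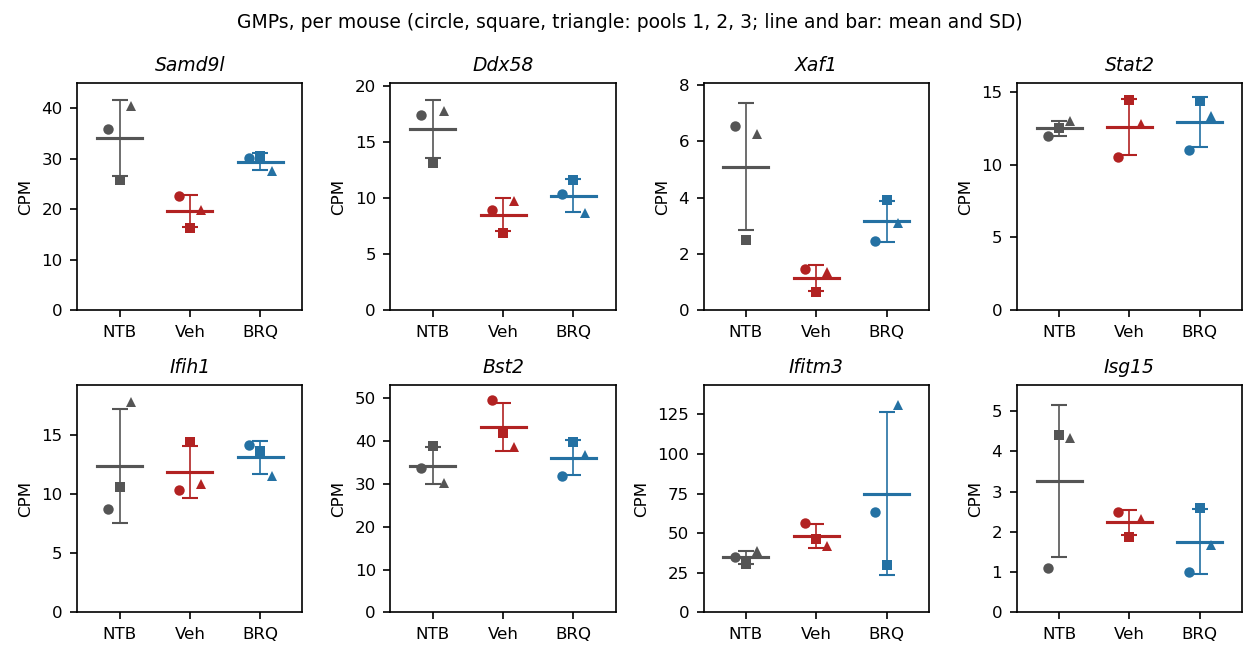
CPM of 8 genes in the GMPs of each mouse, 1 panel a gene, with points for the mice of each group and mean ± SD (n = 3). Samd9l, Ddx58 and Xaf1 were lower in all 3 vehicle mice than in all 3 NTB mice, and Stat2, Ifih1 and Isg15 overlapped.

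Among the transcription factors, Stat2 was not called, with 12, 12.6 and 13 CPM in NTB, 10.6, 14.4 and 12.8 CPM in vehicle and 11.0, 14.4 and 13.4 CPM in BRQ mice (log2 fold changes -0.10, adjusted p = 0.836, and 0.14, adjusted p = 0.628). Irf9, the DNA-binding subunit of ISGF3, was at 10.9, 16.3 and 13 CPM, 8.67, 7.52 and 9.9 CPM and 8.19, 9.64 and 8.68 CPM, below all NTB mice in both tumor-bearing groups, and did not pass the test (-0.62 (SE 0.22, adjusted p = 0.0744) with vehicle, -0.64 (SE 0.21, adjusted p = 0.0778) with BRQ against NTB). Irf7, the inducible amplifier of the response, had 26 UMIs in all 3916 GMPs, at 0, 1.88 and 1.44 CPM in NTB, 0.47, 0.63 and 0.39 CPM in vehicle and 0.27, 0.22 and 0.4 CPM in BRQ mice. It was not tested.

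Of the other sensors, Ifih1, which encodes MDA5 and detects long double-stranded RNA, was at 8.72, 10.7 and 17.8 CPM, 10.4, 14.4 and 10.9 CPM and 14.2, 13.7 and 11.6 CPM in NTB, vehicle and BRQ mice. These groups overlapped, and the log2 fold changes of -0.28 and 0.25 did not pass (adjusted p = 0.509 and 0.364). Dhx58, the regulator LGP2, had -0.80 (SE 0.36, adjusted p = 0.162) with tumor and Zbp1 had 91 UMIs and a log2 fold change of -0.22 (adjusted p = 0.917).

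The IFIT family, whose proteins bind foreign RNA caps, had few UMIs in GMPs. Ifit1 stood at 0, 0 and 0 CPM in NTB, 0.13, 0 and 0.19 CPM in vehicle and 0.09, 0.54 and 0.48 CPM in BRQ mice, from 15 UMIs in all. Ifit3 had 0 UMIs in the 57879131 UMIs of the GMPs, where 3 UMIs would have been 0.0518 CPM, and Ifit3b had 1. Reads that fit both copies may not have been counted, so the levels of this pair are uncertain and the floor holds only for reads that could be assigned. Ifit2 was the member with counts, at 6.54, 9.41 and 12 CPM, 6.32, 5.64 and 7.38 CPM and 9.74, 8.12 and 9.16 CPM. Its BRQ mice lay above all vehicle mice, at 0.46 (SE 0.18, adjusted p = 0.0962), which did not pass.

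The oligoadenylate synthases, which activate RNase L, were as sparse. Oas2 had 48 UMIs, at 0, 1.88 and 3.37 CPM in NTB, 0.67, 0 and 1.16 CPM in vehicle and 0.73, 0.65 and 0.64 CPM in BRQ mice. Oas3 had 53 and Oasl2 26 UMIs and neither was tested. Oas1a and Oasl1, with 162 and 102 UMIs, had log2 fold changes of 0.06 and -0.11 with tumor, both within the spread.

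Isg15, a ubiquitin-like modifier and one of the most strongly induced interferon targets, was at 1.09, 4.39 and 4.33 CPM in NTB, 2.49, 1.88 and 2.33 CPM in vehicle and 1, 2.6 and 1.67 CPM in BRQ mice, from 125 UMIs. The groups overlapped (log2 fold changes -0.62 (SE 0.48, adjusted p = 0.458), -0.46 (SE 0.36, adjusted p = 0.45) and, for BRQ against NTB, -1.08 (SE 0.48, adjusted p = 0.197)). Usp18, which removes ISG15 from proteins, had 11 UMIs, and Herc6, the mouse ISG15 ligase, was not called, at -0.16 and 0.11 (adjusted p = 0.803 and 0.84).

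Ifitm1 leaned the other way from Samd9l and Ddx58. It stood at 13.1, 10.0 and 32.7 CPM in NTB, 43.7, 93.4 and 46.6 CPM in vehicle and 22.6, 25.8 and 80.4 CPM in BRQ mice, so that all vehicle mice lay above all NTB mice, at 1.40 (SE 0.50, adjusted p = 0.0748). Ifitm3 stood at 34.9, 30.7 and 38.5 CPM, 56.2, 46.4 and 41.7 CPM and 63.7, 30.1 and 131 CPM, with BRQ mouse 3 far above the rest (0.50 (SE 0.41, adjusted p = 0.483), then 0.62 (SE 0.29, adjusted p = 0.168)). Neither passed without the pool in the fit. Ifitm2 was not called (-0.02 and 0.03, adjusted p = 0.939 and 0.914), and Ifitm6 was lower in all vehicle than in all NTB mice at -0.66 (SE 0.29, adjusted p = 0.146), which also missed the threshold.

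Of the remaining effectors, Bst2, the tetherin that holds budding viruses at the membrane, was at 33.8, 38.9 and 30.3 CPM in NTB, 49.6, 42.0 and 38.6 CPM in vehicle and 31.9, 39.9 and 36.8 CPM in BRQ mice (0.38 (SE 0.15, adjusted p = 0.11) and -0.30 (SE 0.11, adjusted p = 0.0797)). Cmpk2, a mitochondrial kinase of pyrimidine nucleotides, was at 0, 0 and 1.93 CPM, 1.08, 1.25 and 0.58 CPM and 2.28, 1.62 and 2.63 CPM from 98 UMIs, higher in every BRQ than in every vehicle mouse (1.19 (SE 0.42, adjusted p = 0.0655)). Trim30a, Parp14 and Ifi35 were tested and missed the threshold in all 3 comparisons.

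With the pool as a replicate block in the fit, which compares the mice of a shared capture, more genes passed in GMPs, members and others alike: 6 of the 22 with tumor, 5 with BRQ against vehicle and 3 with BRQ against NTB, where 16.4%, 20.4% and 11.8% of all genes were called. With tumor the added genes were Ifitm1 (log2 fold change 1.61, adjusted p = 0.000453), Ifitm6 (-0.65, adjusted p = 0.0121) and Bst2 (0.41, adjusted p = 0.0474). For BRQ against vehicle they were Ifitm3 (0.61, adjusted p = 0.00659), Bst2 (-0.33, adjusted p = 0.0136) and Cmpk2 (1.26, adjusted p = 0.028). With BRQ against NTB they were Ddx58 (-0.68, adjusted p = 0.0338), Ifitm1 (1.13, adjusted p = 0.0158) and Ifitm3 (1.06, adjusted p = 0.00152).

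The make-up of the GMPs moved with the groups. Cluster 4, a GMP-like cluster in which Ifitm1, Ifitm3 and Bst2 were high, held 4.55%, 5.19% and 6.78% of NTB-GMPs, 12.6%, 10.5% and 12.5% of Veh-GMPs and 22.5%, 22% and 52.4% of BRQ-GMPs. Eosinophil-like cluster 12 held 0%, 1.48% and 6.78% of NTB-GMPs and 0.393%, 3.16% and 1.73% of Veh-GMPs. Neutrophil-like cluster 6 held 5.68%, 1.48% and 6.21%, then 3.15%, 2.11% and 2.08%. The summed neutrophil marker list fell from 55500, 49100 and 49500 CPM in NTB mice to 41100, 36000 and 35300 CPM in vehicle and 36800, 25700 and 24900 CPM in BRQ mice, with none of the 14 markers at 0 in all mice, and Kit was at 64.3, 84.7 and 68.4 CPM, 46.2, 40.1 and 43.3 CPM and 66.1, 76.4 and 59.4 CPM. The macrophage list was at 420, 388 and 393 CPM, 259, 254 and 255 CPM and 251, 282 and 149 CPM. Lists higher in every BRQ than in every vehicle mouse were HSC/MPP (72, 73.3 and 77.1 CPM with vehicle, 114, 136 and 123 CPM with BRQ), monocyte/MDP (138, 121 and 129 CPM, then 205, 188 and 230 CPM), basophil/mast (107, 85.2 and 112 CPM, then 190, 172 and 167 CPM), plasmacytoid dendritic (128, 125 and 141 CPM, then 154, 176 and 151 CPM, with 3 of 9 markers at 0 in all mice), conventional dendritic (1.81, 2.51 and 3.49 CPM, then 12.4, 7.8 and 4.14 CPM) and eosinophil (13.5, 12.5 and 12.6 CPM, then 20.6, 17.3 and 27.4 CPM). With vehicle the monocyte/MDP and basophil/mast lists were also below every NTB mouse (174, 146 and 168 CPM, and 134, 162 and 143 CPM in NTB). The GMP list was lower in every BRQ than in every vehicle mouse (44100, 42200 and 40900 CPM, then 36200, 38900 and 28200 CPM). So was the erythroid/MEP list (153, 137 and 161 CPM, then 123, 85.1 and 111 CPM). The part of these lists in the changes of the members was not tested.

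Within each of the 3 main clusters of GMPs, Samd9l was lowest in the pooled sum of the vehicle mice. Summed over the GMPs of each group, it was at 29.5, 17.7 and 28.5 CPM in NTB, vehicle and BRQ mice in cluster 0, at 39, 31.3 and 43.4 CPM in cluster 2 and at 18.0, 10.8 and 24.7 CPM in cluster 4. Ddx58 was lowest in vehicle in each of the 3 clusters too, at 15.2, 7.62 and 9.63 CPM in cluster 0. Ifitm1 differed between groups mainly in cluster 4, at 20.6, 116 and 64.9 CPM, against 9.83, 16.3 and 16.9 CPM in cluster 0 and 8.31, 6.88 and 9.16 CPM in cluster 2. Bst2 was at 82.4, 65.9 and 49.9 CPM within cluster 4 and at 39.3, 44.6 and 37.5 CPM in cluster 0. These sums have no error of their own, since each pools the cells of 3 mice, and single mice weigh heavily in them. Vehicle mouse 1 gave 598 of the 829 Veh-GMPs of cluster 0 and 128 of the 174 of cluster 4. BRQ mouse 3 gave 342 of the 667 BRQ-GMPs of cluster 4, and the NTB mice gave only 23 GMPs of it.

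The GMP-like cells below the Ms4a3 limit, 3113 cells of clusters 0, 2 and 4, had more calls with tumor than GMPs. The GMPs themselves were taken by Ms4a3 from any cluster. Ifitm1 and Ifitm3 rose with tumor, while Irf9, Samd9l, Ddx58 and Ifih1 fell. Of the 35 genes, 21 passed the filter. With tumor 12 were called, 3 higher and 9 lower, against 20.7% of 10536 genes, and the median of the 21 was -0.8 against -0.022 for all genes. DESeq2 called 7 (Ifih1, Ddx58, Samd9l, Ifitm1, Ifitm3, Cmpk2 and Irf9), against 13.8% of the genes to which it gave an adjusted p. BRQ against vehicle gave 1 call, against 6.09% of genes, and with BRQ against NTB 2 higher and 2 lower, against 16.7%. Without TMM scaling the share of calls that were higher moved from 43.1% to 86.7% with BRQ against vehicle and from 50.2% to 84.7% with BRQ against NTB.

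Ifitm1 stood at 13.1, 12.6 and 17.2 CPM in NTB, 102, 128 and 139 CPM in vehicle and 56.1, 47.7 and 168 CPM in BRQ mice. All 6 tumor-bearing mice were above all NTB mice (3.00 (SE 0.37, adjusted p = 2.11e-06) with vehicle, 2.61 (SE 0.36, adjusted p = 1.49e-05) with BRQ). Between BRQ and vehicle the log2 fold change was -0.39 (adjusted p = 0.451), and in the paired fit it was called (-0.48, adjusted p = 0.0348). Ifitm3 stood at 27.1, 28.1 and 43.7 CPM, 98, 76.6 and 81.5 CPM and 85.2, 68.2 and 143 CPM, likewise above NTB in all 6 (1.31 (SE 0.21, adjusted p = 8.92e-05) and 1.49 (SE 0.20, adjusted p = 1.26e-05)). With the limits of the cell filter read as UMIs, which kept 677 of the 3113 cells and as few as 10 in a mouse, Ifitm1 went to 0.59 (adjusted p = 0.742) and 0.75 (adjusted p = 0.523), and none of the 17 calls in this class over the 3 comparisons was kept, 10 of them for want of a test.

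Irf9 moved opposite to them, at 16.6, 20.2 and 19.2 CPM in NTB, 8.63, 7.77 and 9.05 CPM in vehicle and 8.16, 9.85 and 10.7 CPM in BRQ mice, with no overlap between NTB and either tumor-bearing group (-1.13 (SE 0.19, adjusted p = 0.000115) and -0.98 (SE 0.17, adjusted p = 0.000187)). Samd9l was at 29.7, 36.0 and 37 CPM, 19.1, 24.4 and 16.4 CPM and 29.3, 21.5 and 26.7 CPM, which gave -0.93 (SE 0.16, adjusted p = 0.000119) with tumor and, with BRQ against vehicle, 0.47 (SE 0.15, adjusted p = 0.0535), called in the paired fit (0.50, adjusted p = 0.0202). Its lower level with BRQ against NTB (-0.46 (SE 0.14, adjusted p = 0.0187)) was lost without NTB mouse 2 (adjusted p = 0.081) or 3 (adjusted p = 0.169), without BRQ mouse 2 (adjusted p = 0.0782) and without TMM (adjusted p = 0.156). That call was also lost by DESeq2 (adjusted p = 0.112) and by edgeR when clusters were found with the members (adjusted p = 0.17).

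Of the sensors, Ddx58, Ifih1 and Dhx58 fell with tumor in these cells, and Zbp1 was not tested. Ddx58 went from 15.7, 13.7 and 14.5 CPM in NTB to 7.15, 5.55 and 7.1 CPM in vehicle and 7.1, 12.7 and 9.86 CPM in BRQ mice, and Ifih1 from 14.0, 15.9 and 17.2 CPM to 7.44, 8.88 and 10.8 CPM and 12.1, 14.2 and 11.3 CPM. Their log2 fold changes with tumor were -1.05 (SE 0.23, adjusted p = 0.00191) and -0.88 (SE 0.20, adjusted p = 0.00247), and Dhx58 followed at -1.05 (SE 0.32, adjusted p = 0.0196). The call of Ifih1 was lost without vehicle mouse 1 (adjusted p = 0.0711), and that of Dhx58 without it or NTB mouse 2 (adjusted p = 0.166 and 0.152).

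Cmpk2 was the gene called with BRQ against vehicle. It stood at 2.62, 1.8 and 3.53 CPM in NTB, 0.3, 1.11 and 0.73 CPM in vehicle and 2.84, 1.97 and 2.07 CPM in BRQ mice, from 78 UMIs, with all vehicle mice lowest (-2.39 (SE 0.59, adjusted p = 0.00451) and 2.07 (SE 0.55, adjusted p = 0.0226)). The former call was lost without NTB mouse 3 (adjusted p = 0.12) or vehicle mouse 1 (adjusted p = 0.0984), and the latter without vehicle mouse 1 or 3 (adjusted p = 0.312 and 0.0601) or BRQ mouse 1 (adjusted p = 0.0837). Isg15 was lower with tumor as well, at 4.37, 2.16 and 4.7 CPM, then 1.94, 0 and 1.22 CPM in vehicle and 1.24, 2.12 and 1.7 CPM in BRQ mice (-1.33 (SE 0.47, adjusted p = 0.0457)), a call lost without any of 6 single mice (adjusted p = 0.0522 to 0.393). Herc6 (-0.80, adjusted p = 0.0114), Oasl1 (-1.43, adjusted p = 0.0369) and Bst2 (0.34, adjusted p = 0.0432) were called with tumor but each lost the call without at least 3 of the single mice (highest adjusted p = 0.168, 0.236 and 0.243). With the pairing in the fit, Oasl1 had an adjusted p of 0.0599.

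Cluster 4 held 14% to 29.7% of these cells in the NTB group, 32.8% to 36.9% with vehicle and 41.7% to 72.5% with BRQ, and the summed marker lists moved too. The neutrophil list was at 39500, 44800 and 44800 CPM in NTB, 30300, 23100 and 27900 CPM in vehicle and 23400, 19400 and 14400 CPM in BRQ mice, the macrophage list at 269, 377 and 375 CPM, 163, 206 and 172 CPM and 198, 203 and 103 CPM, and Kit at 129, 105 and 88.3 CPM, 72.2, 76.6 and 58.7 CPM and 94.6, 99.7 and 78.2 CPM. Lowest in every vehicle mouse were the plasmacytoid dendritic (156, 172 and 166 CPM, 121, 110 and 127 CPM and 160, 169 and 156 CPM), basophil/mast (159, 156 and 168 CPM, 129, 87.7 and 89.8 CPM and 183, 171 and 174 CPM) and eosinophil (19.2, 15.5 and 20.6 CPM, 9.53, 12.2 and 12.7 CPM and 16.5, 19.1 and 21.6 CPM) lists, and the HSC/MPP list was higher with BRQ (126, 110 and 107 CPM, 132, 117 and 119 CPM and 168, 206 and 168 CPM). The T/NK list was lower in tumor-bearing mice (998, 926 and 888 CPM, 759, 753 and 680 CPM and 676, 704 and 568 CPM). With BRQ against vehicle the monocyte/MDP list was higher (175, 162 and 182 CPM, then 216, 197 and 233 CPM). So was the conventional dendritic list (2.83, 1.11 and 3.67 CPM, then 4.26, 5.6 and 4.63 CPM). The erythroid/MEP list was lower (150, 117 and 141 CPM, then 103, 92.3 and 105 CPM). At 0 in all mice were 1 of 10 macrophage, 2 of 9 plasmacytoid, 6 of 11 T/NK and 1 of 8 conventional dendritic markers. The part of all these lists in the changes was not tested. Cluster 4 was fitted alone, with 19 to 332 cells a mouse. In it 17 genes were tested, and 4 were called with tumor, 2 with BRQ against vehicle and 2 with BRQ against NTB, where 7.15%, 4.01% and 3.34% of 9316 genes were called. Ifitm1 was at 18.0, 21.6 and 21.2 CPM in NTB, 196, 234 and 254 CPM in vehicle and 94.7, 76.1 and 213 CPM in BRQ mice (3.45 (SE 0.35, adjusted p = 4.68e-07) with tumor, -0.78 (SE 0.21, adjusted p = 0.0266) with BRQ against vehicle). Samd9l was at 8.99, 24.9 and 28.8 CPM, 11.0, 16.2 and 11.4 CPM and 21.5, 20.1 and 25.2 CPM (-1.02 (SE 0.30, adjusted p = 0.0325) and 0.95 (SE 0.23, adjusted p = 0.0122)).

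**Figure D3:**
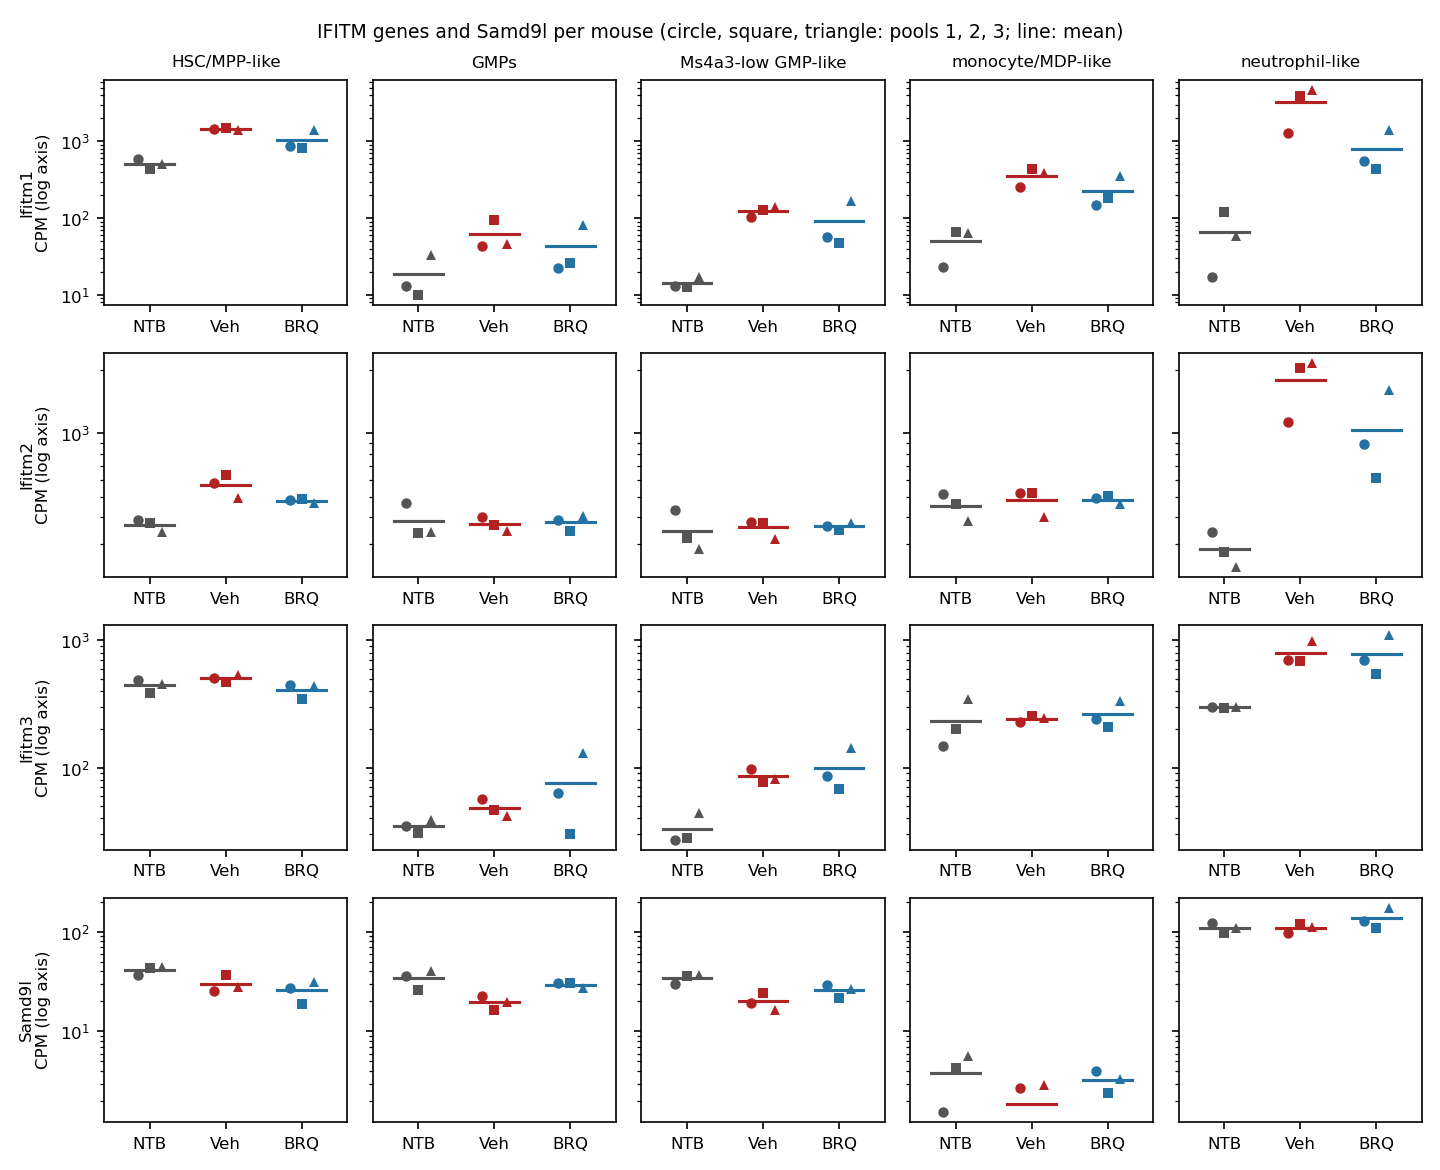
CPM of Ifitm1, Ifitm2, Ifitm3 and Samd9l (rows) per mouse in 5 cell classes (columns) on a log axis, with a point for each mouse and a line for the group mean. Ifitm1 lay above the NTB mice in every vehicle mouse of each class shown, from 43.7 CPM in GMPs to 4645 CPM in neutrophil-like cells, and 1 vehicle mouse with 0 Samd9l UMIs in monocyte/MDP-like cells is not drawn.

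In monocyte/MDP-like cells Ifitm1 rose, and a few response genes passed as lower by edgeR. Of 16 genes tested, 1 was called higher and 5 lower with tumor, against 3.59% of 9430 genes. With BRQ against NTB 1 was higher and 2 were lower, against 3.09%. DESeq2 called Ifitm1 in both comparisons, against 5.5% and 2.32% of the genes to which it gave an adjusted p. With tumor it gave no adjusted p to Irf9, Herc6, Ifi27l2a and Ifi44, which edgeR called lower, and 0.0648 to Trim30a. With BRQ against NTB, DESeq2 gave Ifi27l2a and Ifi44 an adjusted p of 0.129 and 0.245. BRQ against vehicle gave 0 calls by edgeR and by DESeq2, with 3 at an unadjusted p under 0.05, against 5.23%. Without TMM the share of calls that were higher went from 47.3% to 81.3% with BRQ against vehicle and from 46.4% to 74.1% with BRQ against NTB.

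Ifitm1 stood at 23.3, 66.1 and 63.2 CPM in NTB, 252, 434 and 392 CPM in vehicle and 149, 184 and 354 CPM in BRQ mice. All tumor-bearing mice were above all NTB mice (2.63 (SE 0.27, adjusted p = 3.87e-07) and 2.03 (SE 0.26, adjusted p = 4.13e-05)), and the step down with BRQ of -0.60 (SE 0.20, adjusted p = 0.0768) passed only with the replicate block (-0.67, adjusted p = 1.54e-05). With the cell limits read as UMIs, which left 102 of 1601 cells and as few as 2 in a mouse, it was at 0.25 (adjusted p = 0.988) with tumor and -0.1 (adjusted p = 0.992) with BRQ against NTB. Thinned to 3000 UMIs, a UMI of Ifitm1 was found in 5.13%, 8.16% and 15.2% of these cells in the NTB group, 34.3%, 52.6% and 58.9% with vehicle and 27.6%, 28.7% and 53.1% with BRQ, against 2.33%, 0.781% and 6.13%, then 6.27%, 8.89% and 7.07%, then 4.89%, 3.99% and 17.2% of GMPs.

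Ifi44 and Ifi27l2a were called lower in both tumor-bearing groups, and this rested on a single mouse. Ifi44 was at 4.66, 11.1 and 46.3 CPM in NTB, 3.72, 8.78 and 2.43 CPM in vehicle and 4.35, 5.83 and 4.86 CPM in BRQ mice, and Ifi27l2a, a small interferon-induced membrane protein, at 9.32, 24.1 and 138 CPM, 15.9, 10.0 and 7.28 CPM and 8.7, 9.4 and 11.3 CPM. NTB mouse 3 was far above the rest in both. With it the log2 fold changes against NTB were -2.59 and -2.38 for vehicle and -2.25 and -2.73 for BRQ (adjusted p = 0.0016, 0.00179, 0.000628 and 0.000101). Without it none passed (adjusted p = 0.291, 0.452, 0.451 and 0.13). The macrophage marker list, whose cells had the highest Ifi44, was at 59, 19.1 and 36.9 CPM in NTB, 18.4, 13.8 and 11.2 CPM in vehicle and 19.3, 24.2 and 23.9 CPM in BRQ mice, with 1 of its 10 markers at 0 in all mice. The conventional dendritic list, whose cells had the highest Ifi27l2a, was at 12.4, 8.03 and 15 CPM, 12, 6.27 and 11.2 CPM and 4.16, 5.26 and 5.14 CPM, with 1 of 8 markers at 0 in all mice. With vehicle the neutrophil list was below every NTB mouse (2770, 2140 and 3250 CPM, then 1760, 2030 and 1880 CPM). The same held for Kit (88.6, 80.9 and 74.5 CPM, then 58.6, 58.9 and 49 CPM). The part of these lists in the changes of this class was not tested. Irf9 (-0.94, adjusted p = 0.0165), Herc6 (-1.26, adjusted p = 0.0304) and Trim30a (-0.50, adjusted p = 0.0376) were also called lower with tumor and each lost the call without NTB mouse 3 (adjusted p = 0.247, 0.147 and 0.536) or 2 (adjusted p = 0.0771, 0.196 and 0.0587). With the block, Irf9 was also lower with BRQ against NTB (log2 fold change -0.59, adjusted p = 0.0309).

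HSC/MPP-like cells, which came to 12 cells in vehicle mouse 2 and were fitted after this was seen, had the highest Ifitm1 of the named classes in the NTB mice. It rose further with tumor: 583, 443 and 502 CPM in NTB, 1467, 1498 and 1415 CPM in vehicle and 882, 820.1 and 1399.7 CPM in BRQ mice. No groups overlapped, with 1.52 (SE 0.13, adjusted p = 5.29e-10) for vehicle and 1.03 (SE 0.13, adjusted p = 1.9e-06) for BRQ against NTB, and -0.49 (SE 0.13, adjusted p = 0.232) for BRQ against vehicle, which passed with the pairing (-0.50, adjusted p = 0.009). Ifitm2 was at 388, 375 and 340.0 CPM, 582, 632 and 495 CPM and 485, 488 and 467 CPM (0.62 (SE 0.11, adjusted p = 0.000504) and 0.39 (SE 0.10, adjusted p = 0.0185)). The latter call was lost without NTB mouse 3 (adjusted p = 0.156) or BRQ mouse 1 or 2 (adjusted p = 0.0685 and 0.0743). With the limits of the cell filter read as UMIs, 495 of 1227 cells were left, as few as 4 in a mouse. Of the 10 edgeR calls in this class, the 2 of Ifitm1 were kept, 7 were lost in the same direction and 1 was not tested. Ifitm2 with tumor then had an adjusted p of 0.45.

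In the same cells other response genes passed as lower by edgeR. Of 29 tested, 2 were called higher and 1 lower with tumor, against 2.17% of 10112 genes, and 2 higher and 5 lower with BRQ against NTB, against 3.48%. DESeq2 called Ifitm1 and Ifitm2 in both comparisons, against 3.62% and 2.24% of the genes to which it gave an adjusted p, and gave none to the genes that edgeR called lower. With BRQ against vehicle 0 were called by edgeR and by DESeq2, with 5 at an unadjusted p under 0.05, against 0.00989%. Without TMM the single call over all genes with BRQ against vehicle, which was lower, became 2, of which 50% were higher. Ifi44 was at 49.7, 40.9 and 82.9 CPM in NTB, 33.7, 7.34 and 33.1 CPM in vehicle and 24.8, 25.5 and 37.2 CPM in BRQ mice, with no NTB mouse as low as any tumor-bearing one (-0.97 (SE 0.24, adjusted p = 0.0178) and -1.09 (SE 0.20, adjusted p = 0.000853)), but both calls were lost without NTB mouse 3 (adjusted p = 0.524 and 0.248), and the former also without vehicle mouse 1 (adjusted p = 0.178). Herc6, Rtp4, Ifi27l2a and Samd9l were called lower with BRQ against NTB, at -1.08, -1.05, -0.97 and -0.68 (adjusted p = 0.00514, 0.0122, 0.0271 and 0.0354). Each of the 4 lost the call without BRQ mouse 1 or 2 (adjusted p = 0.0572, 0.0585, 0.107 and 0.151) and without NTB mouse 2 or 3 (adjusted p = 0.0668, 0.198, 0.27 and 0.226). The HSC/MPP marker list was at 2100, 1970 and 2010 CPM in NTB, 1630, 1500 and 1520 CPM in vehicle and 1610, 1500 and 1570 CPM in BRQ mice. The conventional dendritic list was at 89.4, 39.8 and 48 CPM, 29.8, 7.34 and 26.5 CPM and 22.7, 28.3 and 17.1 CPM, with 2 of 8 markers at 0 in all mice, and the erythroid/MEP list at 305, 376 and 327 CPM, 217, 213 and 220 CPM and 239, 197 and 198 CPM. The GMP list was higher in all tumor-bearing mice (3470, 5190 and 4980 CPM, 5620, 9440 and 5360 CPM and 6560, 7660 and 6200 CPM). Kit was lower in them (255, 316 and 300 CPM, 218, 198 and 197 CPM and 191, 226 and 187 CPM). The part of these lists in the changes was not tested.

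In neutrophil-like cells, taken as a whole class, several interferon-stimulated genes stood higher in tumor-bearing than in NTB mice. Of 32 tested (Ifit3, Ifit3b and Ifi44 were not), 14 were called higher and 0 lower with tumor, against 12% of 9004 genes called in either direction, and 16 higher and 0 lower with BRQ against NTB, against 5.28%. The medians were 1.41 and 1.45, against -0.028 and -0.026 for all genes. Genes near 0 in the NTB mice passed the filter on low counts through the tumor-bearing mice and could then only be called higher, so these counts and medians describe the genes tested and lend no weight to the direction. With BRQ against vehicle 0 were called by edgeR and by DESeq2, with 5 at an unadjusted p under 0.05, against 0.0666%. DESeq2 called 17 and 18 of them in the comparisons with NTB, against 11.8% and 6.55% of genes. With the cell limits read as UMIs, 29 of the 30 calls were kept.

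Ifitm1 changed most with tumor, from 17.0, 122 and 59.0 CPM in NTB to 1294, 3910.4 and 4645 CPM in vehicle and 558, 439.5 and 1406 CPM in BRQ mice (5.56 (SE 0.70, adjusted p = 0.00116) and 3.53 (SE 0.64, adjusted p = 0.0104)). Between BRQ and vehicle it was -2.03 (SE 0.59, adjusted p = 0.381), with groups that overlapped, and passed only in the paired fit (-1.88, adjusted p = 0.0448). Ifitm2 stood at 341, 275 and 232 CPM, 1135, 2039 and 2154 CPM and 884, 614 and 1608 CPM (2.66 (SE 0.35, adjusted p = 0.00116) and 1.88 (SE 0.34, adjusted p = 0.00988)), and Ifitm3 at 299, 295 and 301 CPM, 696, 695 and 994 CPM and 696, 547 and 1099 CPM (1.42 (SE 0.24, adjusted p = 0.00345) and 1.39 (SE 0.24, adjusted p = 0.00877)). All 6 tumor-bearing mice were above all NTB mice for each of the 3 genes.

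Isg15, Irf7, Trim30a and Rtp4 rose with them, while Ifit1 (3.33, adjusted p = 0.109) and Ifit2 (-1.12, adjusted p = 0.0749) were not called with tumor. Isg15 stood at 3.19, 4.28 and 6.87 CPM in NTB, 16.6, 43.4 and 47.0 CPM in vehicle and 20.6, 13.2 and 59.9 CPM in BRQ mice (2.54 (SE 0.61, adjusted p = 0.0173) and 2.46 (SE 0.57, adjusted p = 0.0253), but -0.08 (SE 0.52, adjusted p = 0.996) with BRQ against vehicle). Irf7 was at 2.13, 2.14 and 3.77 CPM, 10.5, 16 and 26.4 CPM and 9.09, 8.69 and 23.2 CPM (2.46 (SE 0.51, adjusted p = 0.00917)), Trim30a, a regulator of inflammatory signaling, at 16, 18.4 and 20.1 CPM, 69.6, 128 and 159.5 CPM and 64.3, 50.5 and 141 CPM (2.64 (SE 0.40, adjusted p = 0.0019)), and Rtp4, a receptor chaperone, at 0, 3.06 and 5.39 CPM, 20.3, 70.9 and 62.7 CPM and 27.6, 15.7 and 58.0 CPM (3.51 (SE 0.64, adjusted p = 0.00476)). None of these groups overlapped with NTB. The other genes called with tumor were Gbp2, Oasl1, Ifi27l2a, Oasl2, Ifitm6, Parp14 and Oas3, with log2 fold changes of 3.68, 3.33, 1.97, 3.99, 0.83, 1.41 and 1.30. Each of these 7 lost the call without at least 1 single mouse, with a highest adjusted p of 0.0539, 0.0766, 0.0731, 0.143, 0.102, 0.161 and 0.265 in that order. Without vehicle mouse 3 the log2 fold change of Oasl2 was 2.76. Oasl2 was not called with BRQ against NTB (3.08 (SE 0.96, adjusted p = 0.0836)), where Rsad2 (3.29, adjusted p = 0.0139), Zbp1 (2.43, adjusted p = 0.0154) and Ifit1 (4.15, adjusted p = 0.0484) were added.

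Of the genes called lower with tumor in GMPs or in the GMP-like cells below the Ms4a3 limit, Isg15 and Oasl1 were called higher here, and the others, Samd9l, Ddx58 and Irf9 among them, were not called. Samd9l had -0.02 (SE 0.19, adjusted p = 0.973), Ddx58 0.65 (SE 0.36, adjusted p = 0.266) and Irf9 0.72 (SE 0.35, adjusted p = 0.201) in neutrophil-like cells with tumor, and Stat2 0.18 (SE 0.21, adjusted p = 0.656). With the block, 20 genes were called in each comparison with NTB, against 20.7% of all genes with tumor and 14.3% with BRQ, among them Ddx58 (0.77, adjusted p = 0.0466) and Irf9 (0.84, adjusted p = 0.0135) as higher with tumor, beside Zbp1, Oas2, Rsad2 and Ifit1 (adjusted p = 0.0212, 0.000231, 0.00925 and 9.67e-05). In the paired fit Oasl2, Oas2, Usp18 and Irf9 were added with BRQ against NTB (adjusted p = 8.01e-05, 0.000138, 0.0301 and 0.0172). With tumor, Ifitm1, Ifitm2, Ifitm3, Trim30a and Rtp4 stayed called when any 1 mouse was left out. Irf7 lost the call without vehicle mouse 3 (adjusted p = 0.0639) and Isg15 without that mouse (adjusted p = 0.112), vehicle mouse 2 (adjusted p = 0.0566) or NTB mouse 2 or 3 (adjusted p = 0.0658 and 0.061). All 16 calls with BRQ against NTB were lost without NTB mouse 3. Ifitm1, Ifitm2, Ifitm3, Trim30a and Isg15 then had log2 fold changes of 3.42, 1.75, 1.39, 2.27 and 2.92, where they had 3.53, 1.88, 1.39, 2.18 and 2.46 with it, and an adjusted p of 0.097, 0.0923, 0.0905, 0.0909 and 0.117. Without BRQ mouse 3 the changes were smaller: Ifit1 went from 4.15 to 2.09, Isg15 to 1.62, Irf7 from 2.11 to 1.53 and Gbp2 from 3.16 to 2.51, none of them called (adjusted p = 0.221, 0.0642, 0.0796 and 0.0591), while Ifitm2 and Trim30a stayed called at 1.42 and 1.63.

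The neutrophil-like class was made of other cells in NTB than in tumor-bearing mice. Cluster 1, low in RNA and led by Wfdc17, Il1b, Ifitm1 and Cxcr2, held 5.51%, 6.69% and 3.47% of the class in the NTB group, 50.8%, 77% and 82.6% with vehicle and 39.2%, 31.3% and 69% with BRQ, and cluster 3 held 49.6%, 50.1% and 56.5%, then 12.9%, 8.15% and 4.39%, then 23.7%, 19.6% and 4.52%. Median depth went with this, at 7741, 6537 and 6862 UMIs in the NTB group, 2998, 1653 and 1709 with vehicle and 3920, 4854 and 2806 with BRQ. The summed neutrophil marker list was at 391000, 382000 and 361000 CPM in NTB, 298000, 254000 and 255000 CPM in vehicle and 280000, 284000 and 195000 CPM in BRQ mice. Lists higher in all 6 tumor-bearing than in all NTB mice were basophil/mast (93.6, 109 and 122 CPM, 173, 299 and 385 CPM and 207, 208 and 333 CPM), monocyte/MDP (195, 198 and 211 CPM, 233, 370 and 513 CPM and 256, 262 and 471 CPM), eosinophil (9.57, 11.9 and 12.7 CPM, 14.5, 32 and 34.9 CPM and 15.7, 16.1 and 76.3 CPM) and lymphoid progenitor (3.19, 3.06 and 2.43 CPM, 4.05, 9.14 and 7.83 CPM and 4.19, 5.79 and 3.38 CPM), with 1 of the 8 basophil/mast markers and none of the others at 0 in all mice. Their part in the changes was not tested. Cluster 1 was compared alone.

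Within cluster 1 fewer genes passed. Of 18 genes tested, 2 were called higher and 1 lower with tumor, against 0.788% of 3301 genes. With BRQ against NTB 0 were called by edgeR, with 3 at an unadjusted p under 0.05, against 0.212%, and DESeq2 was not run on single clusters. Isg15 stood at 72.4, 46.9 and 118 CPM in NTB, 115, 109 and 103 CPM in vehicle and 160.4, 123 and 178 CPM in BRQ mice (0.33 (SE 0.46, adjusted p = 0.86)), where the class as a whole had 2.54. Ifi27l2a turned around, at 941, 727 and 1115 CPM in NTB, 412, 392 and 289 CPM in vehicle and 741, 631 and 530.3 CPM in BRQ mice (-1.40 (SE 0.23, adjusted p = 0.00069)), against 1.97 (SE 0.45, adjusted p = 0.0139) over the class. The NTB mice gave only 7, 33 and 37 cells of cluster 1, and the mouse of pool 1 only 11843 UMIs.

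Ifitm1 and Ifitm2 were called higher with tumor within the cluster too, at lower values than the 5.56 and 2.66 over the class. Ifitm1 was at 796, 8495 and 3953 CPM in NTB, 9603, 10726 and 10197 CPM in vehicle and 5357, 4828 and 4233 CPM in BRQ mice (1.09 (SE 0.26, adjusted p = 0.0329) with tumor, -1.08 (SE 0.25, adjusted p = 0.00792) with BRQ against vehicle, 0.01 with BRQ against NTB). NTB mouse 2 was nearly at the level of the vehicle mice. Ifitm2 was at 2027, 3544 and 2517 CPM, 5157, 4716 and 4057 CPM and 3778, 3053 and 3368 CPM (0.74 (SE 0.18, adjusted p = 0.0329) with tumor). Since Ifitm1 is among the top genes of the cluster, its level there against other cells is no finding, and only the groups were compared.

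Cluster 1 was the neutrophil-like cluster in which several genes passed with BRQ against vehicle: 3 higher and 1 lower, against 2.15% of genes. Rsad2, the antiviral enzyme viperin, was at 0, 46.9 and 84.5 CPM in NTB, 31.5, 32.2 and 27.3 CPM in vehicle and 92.7, 93.7 and 145 CPM in BRQ mice, with every BRQ above every vehicle mouse (1.99 (SE 0.30, adjusted p = 1.55e-05)). Samd9l was at 217, 93.9 and 372 CPM, 139, 116 and 148 CPM and 189, 237 and 292 CPM (0.83 (SE 0.21, adjusted p = 0.0186)), and Ifi27l2a, given above, had 0.81 (SE 0.18, adjusted p = 0.00366). The median over the 18 was 0.32, against -0.013 over all genes of the cluster. Markers separated the same groups: Kit was at 165, 238 and 191 CPM, then 24.9, 9.86 and 65 CPM with BRQ, the T/NK list at 102, 122 and 89.8 CPM, then 189, 212 and 233 CPM, with 7 of 11 markers at 0 in all mice, and the plasmacytoid dendritic list at 86.6, 83.6 and 78.6 CPM, then 121, 93.7 and 137 CPM, with 3 of 9 at 0. Their part in these calls was not tested.

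**Figure D4:**
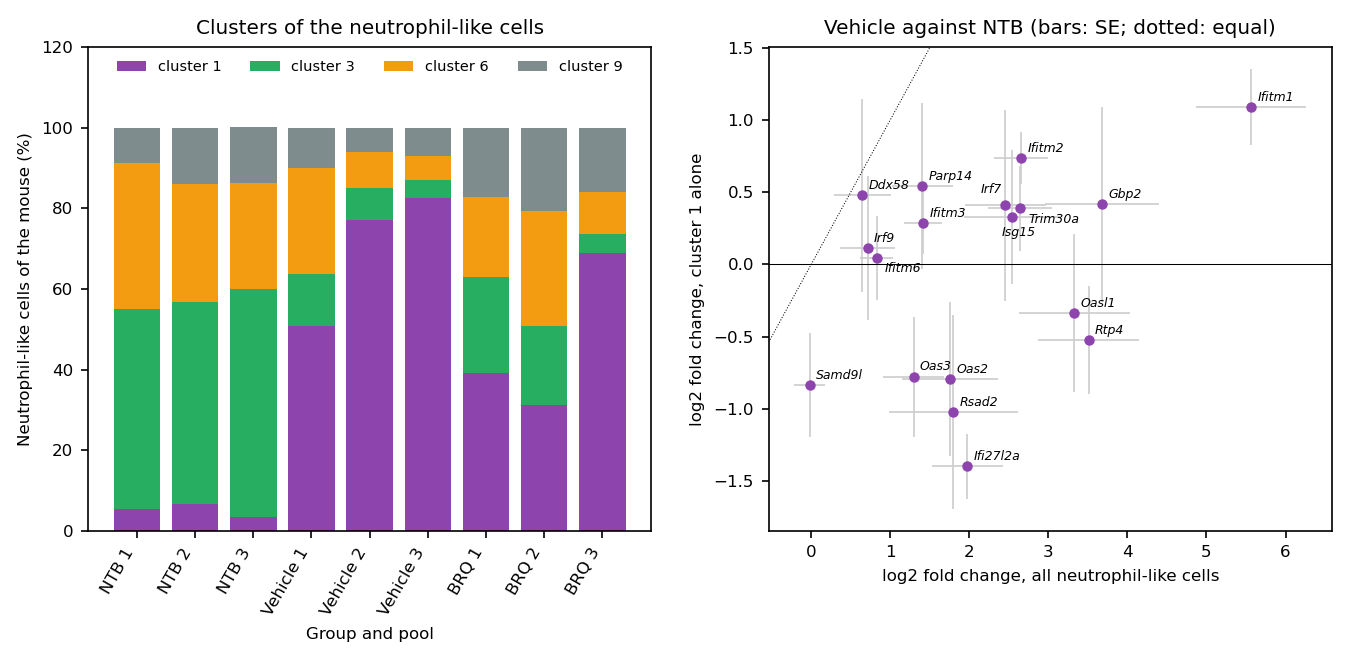
Left, percent of the neutrophil-like cells of each mouse in clusters 1, 3, 6 and 9. Right, log2 fold change of vehicle against NTB with SE over the whole class and within cluster 1 for the genes tested in both. Cluster 1 held 3.47% to 6.69% of the class in NTB and 50.8% to 82.6% in vehicle mice, and Isg15 went from 2.54 over the class to 0.33 within the cluster.

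In the other neutrophil-like clusters the IFITM genes made up nearly all calls. Vehicle mouse 2 gave only 11 cells of cluster 3, 12 of cluster 6 and 8 of cluster 9, and NTB mouse 1 gave 11 of cluster 9. In cluster 3, Ifitm2, Ifitm3 and Ifitm6 were higher with tumor (1.27, 1.09 and 1.08, adjusted p = 0.000355, 5.79e-05 and 6.43e-05) and with BRQ against NTB (1.26, 1.23 and 1.40), 3 of 10 tested each time against 0.611% and 3.22% of 5404 genes. With BRQ against vehicle 0 were called by edgeR, and 0 at an unadjusted p under 0.05, against 0.185%. In cluster 6, Ifitm2, Ifitm3 and Ifitm6 were called higher with tumor (3 of 14 tested, against 5.02% of 7230 genes) and with BRQ against NTB, where Irf9 (-1.46 (SE 0.37, adjusted p = 0.00856)) and Ifi35 (-1.46 (SE 0.41, adjusted p = 0.021)) were called lower (5.28% of genes). Ifitm3 was lower there with BRQ than with vehicle (-0.86 (SE 0.21, adjusted p = 0.0192), 1.37% of genes), with overlap. Kit in cluster 6 was at 33.7, 25.4 and 24.8 CPM, 8.72, 7.28 and 10.9 CPM and 14.9, 19.4 and 10.5 CPM. The macrophage list was at 303, 331 and 321 CPM, 188, 240 and 224 CPM and 226, 254 and 210 CPM. The neutrophil list was at 315000, 305000 and 303000 CPM, 259000, 272000 and 260000 CPM and 206000, 213000 and 111000 CPM. The part of these in the calls of cluster 6 was not tested.

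Cluster 9, led by Ifitm6 and the granule genes Mmp8 and Mmp9, gave Ifitm1 at 0, 34.6 and 192 CPM in NTB, 721, 1174 and 1053 CPM in vehicle and 192, 222 and 207 CPM in BRQ mice. The vehicle mice stood above all others (2.98 (SE 0.35, adjusted p = 3.18e-06) and, with BRQ against vehicle, -2.19 (SE 0.30, adjusted p = 0.000149)). Ifitm2 rose in both tumor-bearing groups (2.26 (SE 0.22, adjusted p = 2.6e-07) and 1.62 (SE 0.22, adjusted p = 1.75e-05)), Ifitm3 rose with tumor (1.07 (SE 0.22, adjusted p = 0.0051)), and Cmpk2 was lower with tumor at 154, 69.2 and 50.4 CPM, then 9.62, 0 and 15 CPM in vehicle mice (-2.51 (SE 0.63, adjusted p = 0.031)). Of 11 tested, 4 were called with tumor, 1 with BRQ against vehicle and 1 with BRQ against NTB, against 1.75%, 0.422% and 2.73% of 3078 genes.

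Whether a gene changed differently in GMPs than in another class was tested directly, with limma on the difference of log2 values within each mouse. Against neutrophil-like cells, 4 of 22 genes differed in their response to tumor, where 2.82% of 8712 genes did. Ifitm1 changed by 4.04 less on the log2 scale in GMPs (difference -4.04, adjusted p = 0.0353), Ifitm2 by -2.66, Trim30a by -2.34 and Xaf1 by -2.02 (adjusted p = 0.0316 for each of the 3). For BRQ against vehicle and BRQ against NTB limma called 0 of the 22, with 2 and 9 at an unadjusted p under 0.05, and 0% of genes each.

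Against the GMP-like cells below the Ms4a3 limit, limma called 0 of 21 genes in each of the 3 comparisons, with 8, 2 and 5 at an unadjusted p under 0.05, and 0% of 10215 genes. For monocyte/MDP-like cells it was 0 of 14, with 4, 0 and 1, where 0.0108% of 9239 genes were called with tumor and 0% in the others. For HSC/MPP-like cells it was 0 of 20, with 3, 3 and 1, and 0.0105% of 9510 genes with BRQ against vehicle and 0% otherwise. For erythroid/MEP-like cells it was 0 of 14, with 3, 2 and 2, and 0% of 7516 genes. No other tool was run on these differences, so that a larger fall of Irf9 or a larger rise of Ifitm1 below the Ms4a3 limit than above it was not shown.

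**Figure D5:**
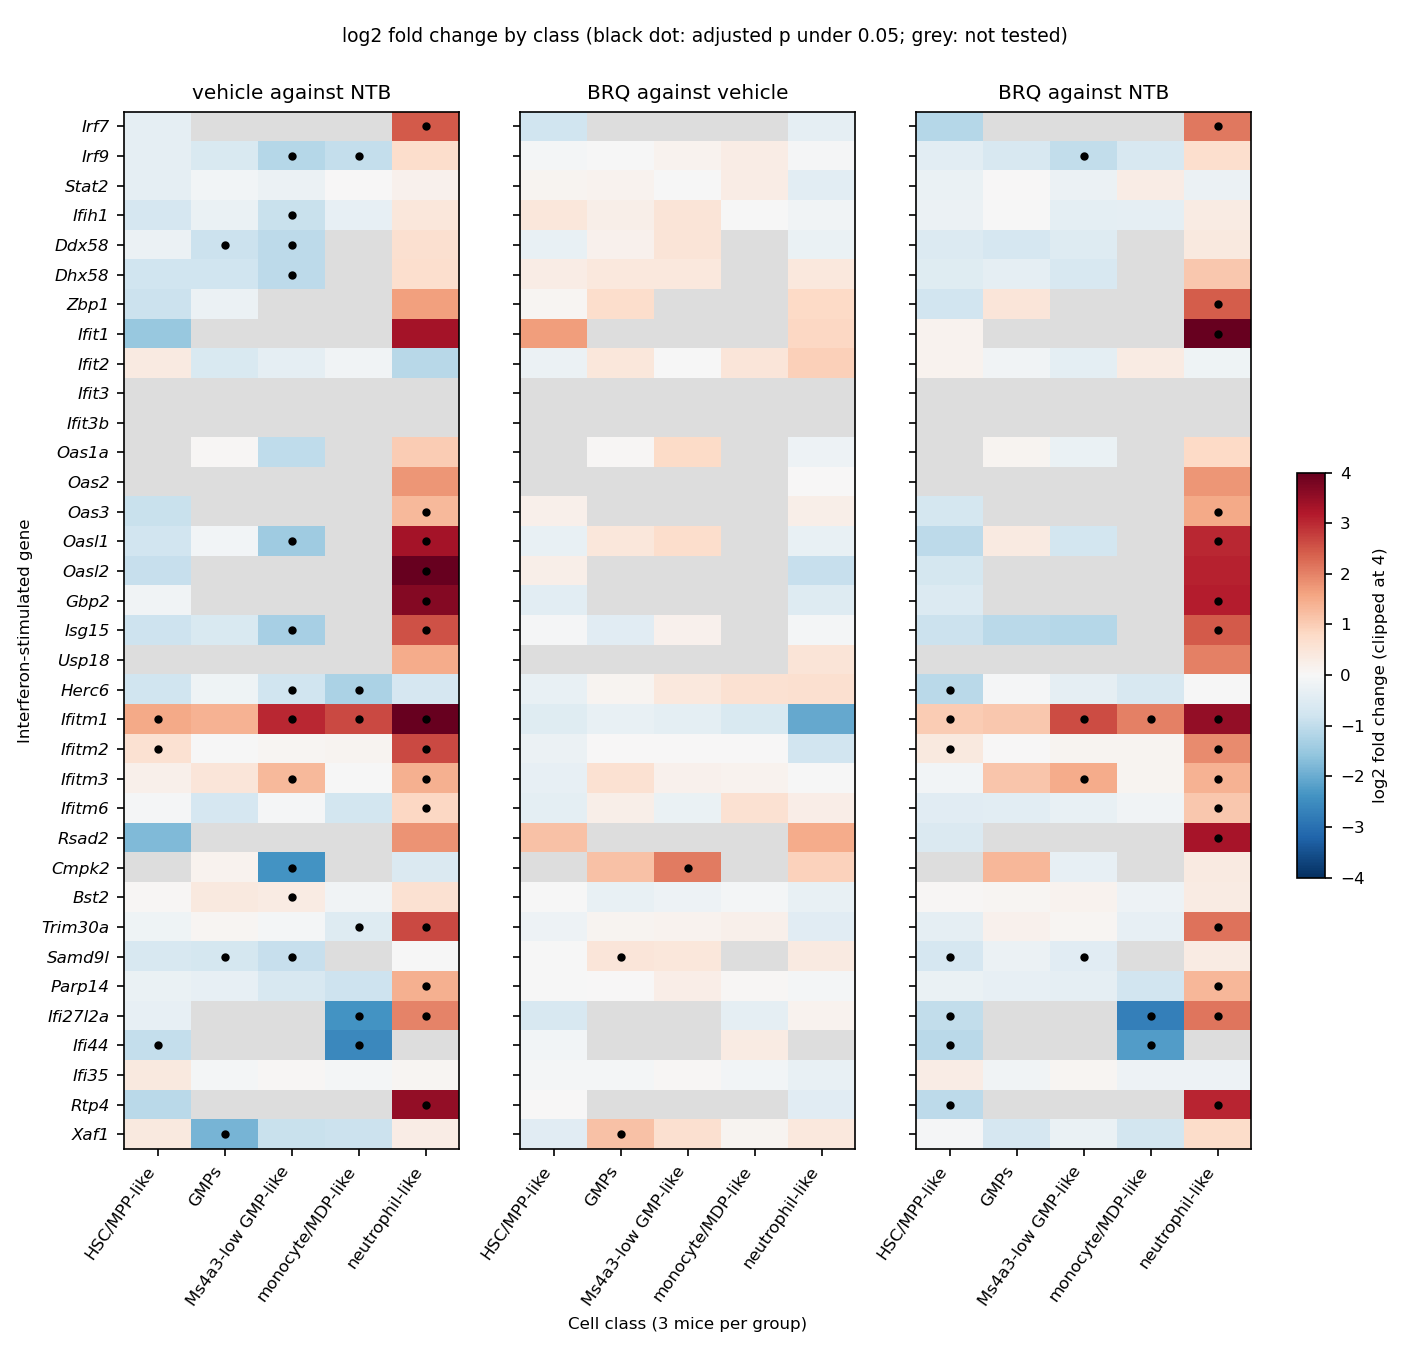
Log2 fold change of each gene (rows) in each class (columns) for vehicle against NTB, BRQ against vehicle and BRQ against NTB (panels), with the color scale ending at 4, a black dot where the edgeR adjusted p was under 0.05 and grey where the gene was not tested. Neutrophil-like cells had 14 and 16 of 32 tested genes higher against NTB, where 12% and 5.28% of all genes were called. Genes low in NTB mice passed the filter there through the tumor-bearing mice, so these counts lend no weight to the direction.

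Summed over all cells of a mouse, the members moved both ways, and here fewer cells of a type and less RNA per cell cannot be told apart. Of 33 tested, 4 were higher and 11 lower with tumor, against 31.2% of 13234 genes, 1 was lower with BRQ against vehicle, against 4.07%, and 2 were higher and 9 lower with BRQ against NTB, against 22.7%. Without TMM the share of calls that were higher went from 57.1% to 42% with tumor, from 33.4% to 91.1% with BRQ against vehicle and from 53.7% to 74.6% with BRQ against NTB. Ifitm1 stood at 96.7, 106 and 112 CPM in NTB, 322, 623 and 676 CPM in vehicle and 179, 167 and 346 CPM in BRQ mice (2.36 (SE 0.30, adjusted p = 0.000312) and, with BRQ against vehicle, -1.23 (SE 0.29, adjusted p = 0.0345)). The latter call was lost without NTB mouse 2 (adjusted p = 0.0585), vehicle mouse 2 or 3 (adjusted p = 0.123 and 0.121) or BRQ mouse 1 or 2 (adjusted p = 0.143 and 0.14).

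The 11 lower with tumor over all cells were Samd9l, Ifi44, Herc6, Cmpk2, Ddx58, Irf9, Parp14, Xaf1, Usp18, Dhx58 and Ifit2. Of these, Irf9, Parp14, Xaf1, Usp18, Dhx58 and Ifit2 each lost the edgeR call when some single mouse was left out. Their highest adjusted p was then 0.0618, 0.0694, 0.0758, 0.173, 0.0719 and 0.181, in that order. Samd9l, Ddx58 and Cmpk2, which were also lower in 1 or both GMP classes, had -0.83 (SE 0.11, adjusted p = 0.00039), -0.62 (SE 0.11, adjusted p = 0.00189) and -1.41 (SE 0.23, adjusted p = 0.00102). Ifi44 was at 10.5, 8.58 and 15.3 CPM in NTB, 3.98, 3.64 and 2.64 CPM in vehicle and 3.4, 4.11 and 4.71 CPM in BRQ mice (-1.76 (SE 0.24, adjusted p = 0.000451) and -1.52 (SE 0.22, adjusted p = 0.00145)). The macrophage list was at 378, 286 and 337 CPM, 201, 280 and 208 CPM and 246, 210 and 170 CPM. The conventional dendritic list was at 128, 206 and 119 CPM, 64.1, 56.5 and 85.6 CPM and 43.9, 59.8 and 46 CPM. The part of both lists in the level of Ifi44 was not tested. With the block Ifit2 was no longer called (adjusted p = 0.0588), and with BRQ against NTB 14 genes were called, against 29.2% of all genes, with Oas3, Trim30a and Bst2 added (adjusted p = 0.0461, 0.00771 and 0.0429).

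The wider interferon pathway was read from a list of 111 other genes, 110 of them in the table and 67 tested in GMPs. With tumor 0 were called higher and 6 lower, with BRQ against vehicle 7 higher and 0 lower, and with BRQ against NTB 1 higher and 3 lower, with medians of -0.14, 0.08 and -0.02. These 6, 7 and 4 calls of 67 stand against the 11.3%, 13.4% and 6.01% of all genes given above. With the replicate block the calls were 11, 13 and 9, against 16.4%, 20.4% and 11.8%. Genes of the interferons themselves had no UMI in GMPs, except Ifnk with 2. Over all cells Ifnk had 5 and Ifng 2 UMIs.

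Of the interferon receptors and the kinases bound to them, only Ifngr1 was called with tumor. Ifnar1 was at 8.72, 11.9 and 11.1 CPM in NTB, 9.88, 13.2 and 9.51 CPM in vehicle and 9.11, 11.2 and 8.28 CPM in BRQ mice (-0.09 and -0.11), and Ifnar2 had 0.03 and -0.05. The kinases Jak1, Jak2 and Tyk2 had -0.08, -0.35 and -0.14 with tumor, none of them called. Ifngr1, a chain of the interferon gamma receptor, was at 334, 348 and 356 CPM in NTB and 265, 276 and 287 CPM in vehicle mice (-0.33 (SE 0.09, adjusted p = 0.0222)).

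The 6 pathway genes called in GMPs with tumor were all lower. Sp100, a nuclear body protein, was at 92.7, 80.9 and 86.7 CPM in NTB, 47.5, 42.6 and 46.6 CPM in vehicle and 51.1, 49.4 and 46.0 CPM in BRQ mice, so that both tumor-bearing groups were below all NTB mice (-0.89 (SE 0.11, adjusted p = 1.27e-05) and -0.82 (SE 0.10, adjusted p = 5.03e-05)), with 0.08 between them (adjusted p = 0.662). Ifi27, a mitochondrial protein of the response, was at 98.1, 59.0 and 92.4 CPM, 44.4, 38.9 and 25.4 CPM and 59.6, 66.4 and 67.6 CPM, lowest in every vehicle mouse (-1.15 (SE 0.18, adjusted p = 2e-04) and, with BRQ against vehicle, 0.80 (SE 0.15, adjusted p = 0.00076)). Ikbke (-0.57), Slfn2 (-0.95) and the ISG15-conjugating enzyme Ube2l6 (-1.15) were the others called lower with tumor, with adjusted p = 0.00844, 0.0125 and 0.022.

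Higher with BRQ than with vehicle were the DNA-binding family members Ifi203 (0.95 (SE 0.20, adjusted p = 0.00248)) and Mndal (1.06 (SE 0.23, adjusted p = 0.00344)), the secreted Lgals3bp (0.94 (SE 0.21, adjusted p = 0.0042)) and Epsti1 (1.35 (SE 0.33, adjusted p = 0.00768)), beside Ifi27, Slfn8 and Trafd1. Ifi203 was also higher with BRQ against NTB (1.01, adjusted p = 0.0475), and Sp100, Sp110 (-0.68, adjusted p = 0.00311) and Ube2l6 (-1.14, adjusted p = 0.0275) were lower.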

How the data were processed

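The authors deposited raw counts of UMIs per gene and of hashtags per barcode, 1 matrix a pool, made with Cell Ranger 6.0.0 on build mm10 per the submitters' processing notes. Barcodes with over 15% mitochondrial UMIs, under 500 or over 7500 detected genes were left out. Transcripts is the unit the paper gives for both limits, and taking them as UMIs, an alternative, kept 5650 of 15966 cells. HTODemux (Seurat 5.3.0, quantile 0.99) assigned mice. Cells were clustered with scanpy 1.11.5 (2000 variable genes, 30 components, 20 neighbours, leidenalg 0.10.2 at resolution 0.8), and clusters were named from marker lists. Scrublet doublets were left out only in an alternative, and cluster 10 (75.2% of its cells marked) stayed unnamed. Its cells above the Ms4a3 limit stayed among the GMPs and made up 2.22% to 7.37% of those of a mouse. GMPs had ln(1 + Ms4a3 UMIs per 10000) over 3, with 3733 cells within 0.25 of it. Sums per mouse were fitted over all 9 mice with edgeR 4.0.16 (TMM, filterByExpr, two-sided quasi-likelihood test) when each mouse had 20 cells, a minimum not asked of the HSC/MPP-like cells, the single clusters or the alternatives. A call is a Benjamini-Hochberg adjusted p under 0.05 over all genes tested. DESeq2 1.42.0 served as an alternative, and limma 3.58.1 tested differences between classes (R 4.3.3, Python 3.11.15, numpy 2.4.6, scipy 1.17.1).

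Members and lists were chosen with earlier results of these data known. Values per mouse were named for Isg15, Ifit1, Ifit3, Irf7, Stat2, Ifih1, Oas2, Bst2 and Ifitm3 in GMPs, for the called members with the lowest adjusted p, and for others chosen after their values were seen. The HSC/MPP-like fit, the fits on single clusters and the thinning of cluster 1 were added after seeing the data. Mice of a pool are paired by the labels, which put them in 1 capture. Log2 values centred per group correlated within pools with a median r of 0.0881 in GMPs (lowest -0.019 of 9 pairs) and 0.13 in neutrophil-like cells (lowest -0.107), against -0.0456 and -0.0778 over 18 pairs of other pools. Code was tested on simulated data. Counts sample molecules, so intervals cover counting error only.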

Additional observations from a re-analysis of the deposited data

Results flagged for a closer look

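The response to tumor (vehicle against NTB) differed between GMPs and neutrophil-like cells for 4 of 22 interferon-stimulated genes, by a limma test of the difference of both log2 changes within mice. The log2 change in GMPs minus that in neutrophil-like cells was -4.04 for Ifitm1 (adjusted p = 0.0353), -2.66 for Ifitm2, -2.34 for Trim30a and -2.02 for Xaf1 (adjusted p = 0.0316 for each of the last 3). With the pool as a block 5 genes passed, with Irf9 added at -1.41 (adjusted p = 0.044), and 379 of 8712 genes in place of 246. Xaf1 stood in few UMIs in GMPs, and the neutrophil-like class was 3.47% to 6.69% cluster 1 in NTB and 50.8% to 82.6% in vehicle mice. The part of that shift in these differences was not tested.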

How the results depend on the processing

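Counts of members called depended on how GMPs were cut and on the pool. In GMPs with tumor, 3 were called, against 0 with the limits read as UMIs per cell, 9 with an Ms4a3 limit of 2.5, 0 with 3.5, 6 without the low-count filter, 6 with the replicate block, 5 with only the 6 mice compared, and 0 to 5 when 1 mouse was left out. With BRQ against vehicle the 2 became 1 with tag ratios, 0 with limits as UMIs, 1 with 2.5, 1 with 3.5, 1 by DESeq2, 5 without TMM, 1 with at least 30 counts in 3 mice, 5 with the replicate block and 1 to 3 when 1 mouse was left out. With BRQ against NTB the 0 became 2 with tag ratios, 1 without Scrublet doublets, 8 with 2.5, 1 without TMM, 2 without the filter, 3 with the block and 0 to 2 when 1 mouse was left out. Over the other classes, 32 calls with tumor became 20 with limits as UMIs (15 to 36 without 1 mouse), 1 with BRQ against vehicle became 3 with limits as UMIs, 0 when clustered with the members, 0 by DESeq2, 5 without TMM, 7 without the filter and 5 paired (0 to 3), and 23 with BRQ against NTB became 36 without the filter (4 to 25). Over all cells, 15 with tumor became 6 with limits as UMIs (8 to 15), 1 with BRQ against vehicle became 0 with limits as UMIs, 3 without TMM and 0 with only 6 mice (0 to 1), and 11 with BRQ against NTB became 17 with tag ratios and 0 with limits as UMIs (4 to 12). Of the pathway list, 6 with tumor became 0 with limits as UMIs, 16 with 2.5, 0 with 3.5 and 11 with the block (2 to 9), 7 with BRQ against vehicle became 0, 2 with 3.5, 20 without TMM and 13 with the block (3 to 8), and 4 with BRQ against NTB became 2 with tag ratios, 0 with limits as UMIs, 15 with 2.5, 0 with 3.5, 7 without TMM and 9 with the block (2 to 5). The limits as UMIs removed the deeper cells by construction and left all 5 calls in GMPs without a test, as the limit of 3.5 did for Ddx58 and Xaf1. The causes of the other shifts were not tested.

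Directions turned for genes without a call in GMPs: with tumor, Stat2 to 0.01 with the block (-0.16 to 0.07 without 1 mouse), Ifih1 (-0.42 to 0.14 without 1 mouse), and Bst2 to -0.17 and Ifitm3 to -0.38 with 3.5. With BRQ against vehicle, Stat2 went to -0.02 with tag ratios (-0.04 to 0.23) and Ifitm3 to -0.55 with limits as UMIs (-0.05 to 0.98). With BRQ against NTB, Stat2 went to -0.17 with tag ratios and -0.13 with 2.5 (-0.05 to 0.13), Ifih1 to 0.13 without TMM and 0.01 without the filter (-0.17 to 0.39), and Bst2 to -0.7 with 3.5 (-0.04 to 0.2). Called values turned with limits as UMIs: Ifitm1 in monocyte/MDP-like cells went to -0.1 with BRQ against NTB, and over all cells 12 of 27 calls turned and 12 more were lost. There Irf9, Ddx58, Usp18, Parp14, Xaf1 and Bst2 went to 0.65, 0.38, 0.52, 0.71, 0.35 and -0.15 with tumor, and Irf7, Irf9, Ddx58, Usp18, Parp14 and Cmpk2 to 0.55, 0.39, 0.03, 0.63, 0.6 and 0.18 with BRQ against NTB. Over all named genes and the counts of HSC/MPP-like calls, 822 values stayed the same or, for counts, close. Another 64 lost the call in the same direction, 17 gained one, 19 turned and 13 counts moved further. The replicate block changed no other call than those given. Depth limits the genes with under 100 UMIs in GMPs, and NTB mice gave the fewest cells. Single clusters were not refitted without single mice.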
